A study of Homo sapiens with 6 samples.

Results

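The iron handling genes described here are 10 genes that take up, reduce, move, store, release, export or sense iron: TFRC, STEAP3, SLC11A2, SLC25A37, FTH1, FTL, NCOA4, SLC40A1, ACO1 and IREB2. They were chosen by symbol and matched to Ensembl gene IDs with the version dropped. All 10 were found among the 60660 IDs measured, and all 10 were among the 28015 genes tested. RNA-seq was done on the human cell line OCI-AML3, which was derived from an acute myeloid leukaemia. The first group is 3 libraries of cells that overexpress SLC2A3, the gene of the glucose transporter GLUT3, and the second is 3 libraries of cells with an empty vector, named pLenti in the titles. Every culture in both groups was given 250 µM vitamin C, so its effect cannot be told apart from the state that all libraries share. Time of treatment, the promoter of the vector and whether each line is 1 clone are not given in the sources used here.

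Cells take up iron bound to transferrin through the transferrin receptor, and a reductase and a carrier then move it from the endosome into the cytosol. Iron that is not used at once, mainly for heme and iron-sulfur clusters in mitochondria, is stored inside ferritin shells, which are broken down in the lysosome when iron is needed, and ferroportin exports the excess. Iron regulatory proteins bind a short hairpin, the iron responsive element, when iron is scarce: at the start of an mRNA this blocks translation, and at the end of the transferrin receptor mRNA it protects the mRNA from decay. Read counts measure mRNA only, so they see the second kind of control and not the first. Ascorbate, the reduced form of vitamin C, is a reductant of ferric iron and raises iron uptake and ferritin protein in cultured cells.

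Iron responsive elements of some of these genes are shown because they bear on what an mRNA count of those genes can and cannot show. The hairpin was searched in protein-coding GENCODE 29 transcripts (GRCh38) as CNNNNNCAGTGN, where the first 5 bases between the bulged C and the loop had to pair with the 5 bases after the loop, G with T allowed. The sense strand of each transcript was read, and no other motif was searched. In the lines that follow, capitals mark the bulged C and the loop, and each run is 29 bases, 5′ to 3′.
FTH1 5′ UTR, chr11:61967574-61967602, minus strand: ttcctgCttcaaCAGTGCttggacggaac
FTL 5′ UTR, chr19:48965335-48965363, plus strand: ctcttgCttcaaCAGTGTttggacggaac
SLC40A1 5′ UTR, chr2:189580661-189580689, minus strand: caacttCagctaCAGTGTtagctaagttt
TFRC 3′ UTR, chr3:196050979-196051007, minus strand: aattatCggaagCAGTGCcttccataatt
TFRC 3′ UTR, chr3:196050575-196050603, minus strand: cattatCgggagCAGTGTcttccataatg
TFRC 3′ UTR, chr3:196050510-196050538, minus strand: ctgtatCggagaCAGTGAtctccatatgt
TFRC 3′ UTR, chr3:196050463-196050491, minus strand: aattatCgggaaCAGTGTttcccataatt

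A match was found in 4 of the 10 genes, 1 site each in FTH1, FTL and SLC40A1 and 4 in TFRC. Elements of another form are missed by this search, so the sites listed need not be all those of a gene. Among all protein-coding genes it was present in 0.189% of the 19003 with an annotated 5′ UTR and in 0.696% of the 19108 with a 3′ UTR. The loop begins at base 47 of the FTL transcript, and at base 18 of the FTH1 transcript in which it lies nearest the start. Outside the 10 genes, 2 of the 143 genes of the wider iron lists described further on held a match, ALAS2 and TF. The site was in 7 of 8 FTH1 transcripts, in the 1 FTL transcript, in 3 of 4 TFRC transcripts and in 1 of 5 SLC40A1 transcripts. With 4 of the 5 base pairs required, 4.76% of genes matched in a 3′ UTR, and ACO1, IREB2 and SLC11A2 were then added. The SLC11A2 site is shown because its transcripts differ in it: 5 of 18 hold it, and the reads per gene do not separate those from the rest.
SLC11A2 3′ UTR, chr12:50988269-50988297, minus strand: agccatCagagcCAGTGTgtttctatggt

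Reads counted in genes, recovered from the deposited values, came to 31054462 to 35770556 per library. The values below are normalised reads, in which each library's gene counts have been scaled by that library's size factor. SLC2A3 was at 3716 to 4056 normalised reads in the SLC2A3 libraries and 1183 to 1257 in the empty vector libraries (log2 fold change 1.70, SE 0.057, limma adjusted p = 7.95e-18). Myeloid markers were present in both groups: 12 genes summed to 49767 to 54857 normalised reads in the SLC2A3 libraries and 50145 to 51769 in the empty vector libraries, and KIT had at most 2 reads in any library. Of 11 tested myeloid markers, only the receptor FLT3 passed by limma and was lower (log2 fold change -0.21, limma adjusted p = 0.0277), while edgeR and DESeq2 each had 2 lower. At an unadjusted p under 0.05 there were 6 of the 11 myeloid markers, beside 11.8% of all tested genes and 23.4% of those with a mean of at least 500 normalised reads. For 4 the SLC2A3 libraries lay below all empty vector libraries (8.27% of all tested genes). Their part in the results was not tested. Erythroid cells use many of the same iron genes, but the globin genes HBB, HBA1, HBG1 and HBG2 and the globin chaperone AHSP had 0 reads in all 6 libraries, and 0 of 7 tested erythroid markers passed by limma, edgeR or DESeq2 or had an unadjusted p under 0.05. Summed over 13 erythroid genes, values were 697 to 860 and 732 to 794, in the SLC2A3 and the empty vector libraries, most of them reads of EPOR. Lymphoid markers CD3D, CD3E and MS4A1 were at 0 too. Epithelial and fibroblast markers, 8 genes, summed to 96.1 to 118 in the SLC2A3 libraries and 72.3 to 80.0 in the empty vector libraries, and their part in the results was not tested. No source used here states that the 3 libraries of a group came from separate cultures, and the p-values then describe the spread among these libraries, which may be technical. In bulk RNA, fewer cells with a transcript and less of it per cell cannot be told apart.

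1 of the 10 iron handling genes passed the test, STEAP3, the ferrireductase of the transferrin cycle, which was 1.21-fold higher in the SLC2A3 group. TFRC, the receptor that feeds the same cycle, was also higher in every SLC2A3 library but did not pass. The ferritin heavy chain mRNA FTH1 averaged lower and the light chain mRNA FTL slightly higher in the SLC2A3 group, and neither passed. The other 6 genes did not pass either, with log2 fold changes of -0.098 to 0.072 for 5 of them, and SLC40A1 was too low in reads for a close estimate. Of all tested genes, 0.692% were higher and 0.800% lower by the same test. By edgeR, STEAP3 alone of the 10 passed (3.29% of 18630 genes did), and by DESeq2 at its default filtering STEAP3 and TFRC did (7.98% of 9827 genes), with 0 of the 10 lower by either. Among the 8088 genes with a mean of at least 500 normalised reads, as 9 of these 10 have, 4.44% passed in either direction.

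**Figure D1:**
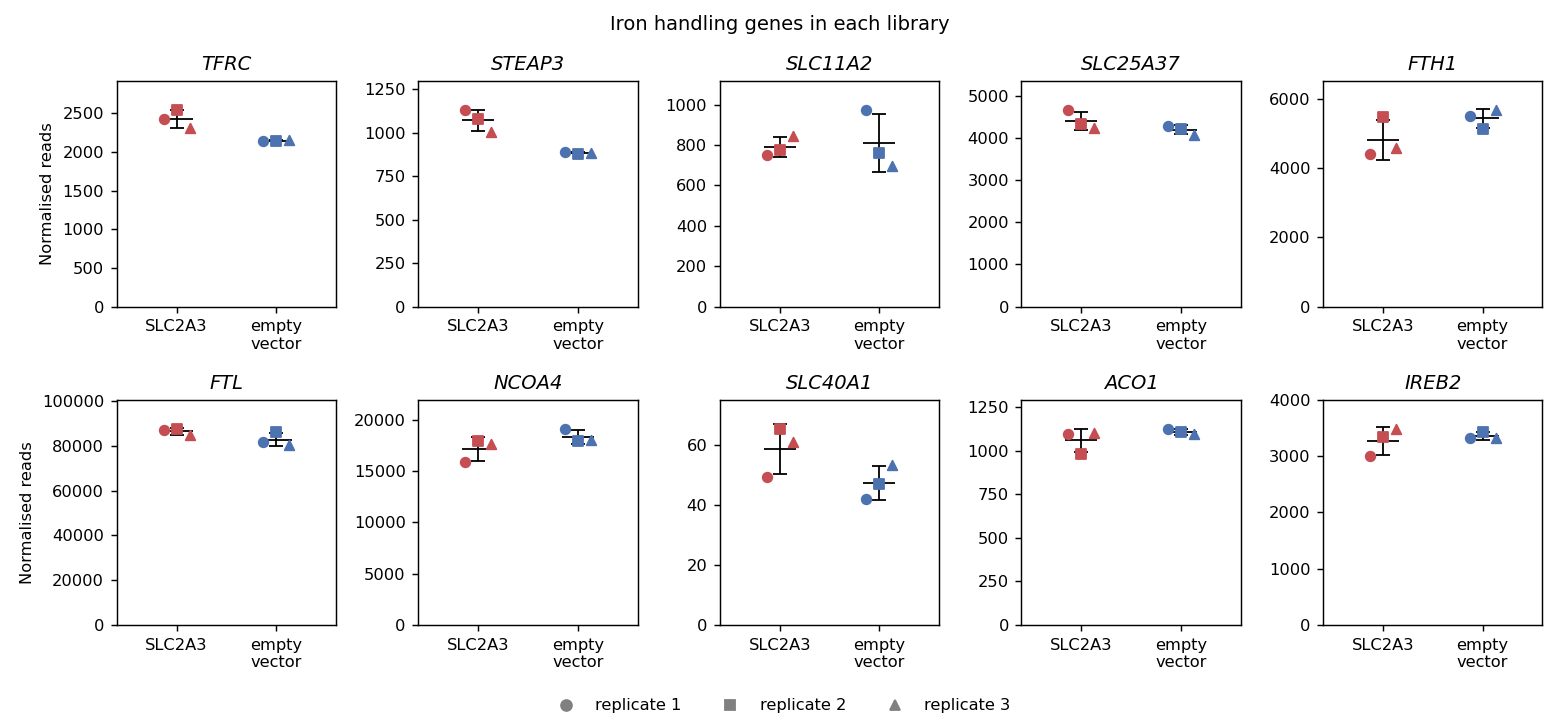
Normalised reads (y axis, from 0, one scale per gene) of the 10 iron handling genes in each library, SLC2A3 overexpression (red) left of empty vector (blue). Marker shape gives the replicate number, the long bar the mean and the capped bar the SD (n = 3 libraries). The SLC2A3 libraries lie above all empty vector libraries for TFRC and STEAP3, and the groups overlap for the other 8.

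TFRC (ENSG00000072274.13, chromosome 3, 196027183 to 196082189, minus strand) encodes the transferrin receptor, the main route of iron into dividing cells. It had 2432, 2539 and 2316 normalised reads in the SLC2A3 libraries, against 2146, 2142 and 2157 in the empty vector libraries. The lowest SLC2A3 library was above the highest empty vector library, and the empty vector libraries were very close to each other. The ratio of means was 1.13 and the log2 fold change 0.18 (SE 0.055, 95% interval 0.063 to 0.29, limma adjusted p = 0.123). TFRC therefore did not pass across all genes, although its own interval lies above 0. TFRC passed under 2 of the 16 alternatives. These were DESeq2 at its default filtering (adjusted p = 0.0289) and limma when only genes with at least 50 normalised reads in 3 libraries were tested (adjusted p = 0.0493). With any 1 library left out it did not pass (limma adjusted p of 0.153 to 0.334). edgeR's quasi-likelihood test gave an adjusted p of 0.0731.

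STEAP3 (ENSG00000115107.20, chromosome 2, 119223831 to 119265652, plus strand) encodes the metalloreductase that turns ferric into ferrous iron in the endosome, after the receptor has brought it in. It had 1128, 1077 and 1006 normalised reads in the SLC2A3 libraries, against 887, 880 and 885 in the empty vector libraries. The groups did not overlap, and the SLC2A3 libraries were the more spread. The mean was 1070 ± 61.3 in the SLC2A3 group and 884 ± 3.64 in the empty vector group (SD, n = 3 each). The log2 fold change was 0.27 (SE 0.071, 95% interval 0.13 to 0.42, limma adjusted p = 0.0434). Of the 194 genes that were higher, 105 changed by more.

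The STEAP3 call was lost under 9 of the 16 alternatives. Its log2 fold change stayed between 0.24 and 0.32 when any 1 of the 6 libraries was left out, but the limma adjusted p was then 0.0667 to 0.144, so the call was lost each time, with fewer samples in each fit. It was also lost without both replicate 2 libraries (adjusted p = 0.113). edgeR (adjusted p = 0.0248) and DESeq2 at its default filtering (0.0122) on the recovered reads kept it, while limma with a pseudocount of 0.1 lost it with all 6 libraries in the fit (adjusted p = 0.0693). STEAP3-AS1, a noncoding gene on the other strand within STEAP3, had at most 22.3 normalised reads in any library. The library kit keeps strand, but whether the counting used it is not given, so reads of both genes may be mixed.

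SLC11A2 (ENSG00000110911.16, chromosome 12, 50979401 to 51028566, minus strand) encodes DMT1, which carries ferrous iron across the endosomal membrane. It had 748, 773 and 846 normalised reads in the SLC2A3 libraries, against 971, 759 and 697 in the empty vector libraries. The highest and the lowest value were both in the empty vector group. The log2 fold change of -0.023 (95% interval -0.22 to 0.17, limma adjusted p = 0.965) took the opposite sign without empty vector replicate 1, at 0.12, and without SLC2A3 overexpression replicate 1, at 0.014.

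SLC25A37 (ENSG00000147454.14, chromosome 8, 23528805 to 23575463, plus strand) encodes mitoferrin-1, an importer of iron into mitochondria that is best known from developing red cells. It had 4648, 4336 and 4241 normalised reads in the SLC2A3 libraries, against 4288, 4213 and 4069 in the empty vector libraries. SLC2A3 replicate 3 lay inside the empty vector range. The log2 fold change was 0.072 (95% interval -0.028 to 0.17, limma adjusted p = 0.634). Its relative SLC25A28, mitoferrin-2, which is used more widely, had a log2 fold change of 0.044.

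FTH1 (ENSG00000167996.16, chromosome 11, 61959718 to 61967660, minus strand) encodes the ferritin heavy chain, the subunit that oxidises iron as it enters the shell. It had 4396, 5463 and 4580 normalised reads in the SLC2A3 libraries, against 5501, 5141 and 5664 in the empty vector libraries. SLC2A3 replicates 1 and 3 were below all empty vector libraries, while replicate 2 lay inside their range, and empty vector replicate 2 was the lowest of its group. The ratio of means was 0.885 and the log2 fold change -0.18 (SE 0.060, 95% interval -0.30 to -0.058, limma adjusted p = 0.152). FTH1 passed and was lower in 1 of the 6 fits with 1 library left out, that without SLC2A3 overexpression replicate 2. Its log2 fold change was then -0.28 (limma adjusted p = 0.00603). Over the 6 fits it ranged from -0.28 to -0.12, with a limma adjusted p of up to 0.491. Under 13 of the 16 alternatives FTH1 was lower and did not pass. Without both replicate 2 libraries the log2 fold change was -0.32 (limma adjusted p = 2.78e-05).

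The replicate 2 libraries were also the highest in their groups for RN7SL1, a noncoding RNA of the signal recognition particle. RN7SL1 was at 2233, 6026 and 1922 normalised reads in the SLC2A3 libraries and 538, 1812 and 705 in the empty vector libraries, so it also differed between the groups (log2 fold change 1.74, limma adjusted p = 8.61e-04). The part of RN7SL1, or of what made it differ, in the FTH1 values was not tested. FTH1 also passed when only genes with at least 50 normalised reads in 3 libraries were tested (log2 fold change -0.18, adjusted p = 0.0446).

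The FTH1 level is uncertain in a further way. 26 IDs are named as FTH1 pseudogenes, near copies of its mRNA, and 18 of them had reads. Together they held 95.6, 120 and 127 normalised reads in the SLC2A3 libraries and 91.7, 159 and 125 in the empty vector libraries, at most 3.09% of FTH1 in any library. FTH1P3 had the most, at 33.4 to 48.1 in the SLC2A3 libraries and 35.7 to 64.0 in the empty vector libraries. With these added to FTH1 the log2 fold change was -0.18 (limma adjusted p = 0.148). How reads that match several copies were counted is not given. BEST1, on the other strand across part of FTH1, had 266 to 289 normalised reads in the SLC2A3 libraries and 302 to 339 in the empty vector libraries.

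FTL (ENSG00000087086.15, chromosome 19, 48965301 to 48966878, plus strand) encodes the ferritin light chain, which helps the iron core form. It had 87176, 87492 and 84737 normalised reads in the SLC2A3 libraries, against 81563, 85913 and 80332 in the empty vector libraries. 2 of 3 SLC2A3 libraries were above all empty vector libraries, and replicate 3 was below empty vector replicate 2. The log2 fold change was 0.066 (95% interval -0.00018 to 0.13, limma adjusted p = 0.428). The upper end of the interval is a fold of 1.10. 16 FTL pseudogene IDs together held at most 0.0396% of the FTL value, and FTLP15 had the most, at 4.64 to 14.4 in the SLC2A3 libraries and 6.01 to 19.0 in the empty vector libraries.

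NCOA4 (ENSG00000266412.5, chromosome 10, 46005088 to 46030714, minus strand) encodes the receptor that carries ferritin to the lysosome for breakdown. It had 15834, 17934 and 17620 normalised reads in the SLC2A3 libraries, against 19082, 17875 and 18003 in the empty vector libraries. SLC2A3 replicate 2 was above the lowest empty vector library, and the other SLC2A3 libraries were below all of them. The log2 fold change was -0.098 (95% interval -0.19 to -0.0099, limma adjusted p = 0.347). As for FTH1, the difference was larger without both replicate 2 libraries, at -0.15, and then passed (adjusted p = 0.0332).

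SLC40A1 (ENSG00000138449.11, chromosome 2, 189560579 to 189583758, minus strand) encodes ferroportin, the known cellular exporter of iron. It had 49.2, 65.2 and 60.9 normalised reads in the SLC2A3 libraries, against 41.8, 47.0 and 53.1 in the empty vector libraries, from 53, 68 and 57 and from 41, 47 and 53 recovered reads. The groups overlapped, since SLC2A3 replicate 1 was below empty vector replicate 3. The log2 fold change of 0.30 had the widest interval of the 10 genes, -0.24 to 0.83 (limma adjusted p = 0.750). At this depth neither no difference nor one of 1.78-fold lies outside that interval.

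ACO1 (ENSG00000122729.19, chromosome 9, 32384603 to 32454769, plus strand) encodes iron regulatory protein 1, which is an aconitase when it holds an iron-sulfur cluster and binds the hairpins shown above when it does not. It had 1093, 983 and 1100 normalised reads in the SLC2A3 libraries, against 1125, 1106 and 1093 in the empty vector libraries. Its log2 fold change was -0.067 (95% interval -0.21 to 0.074, limma adjusted p = 0.793). SLC2A3 replicate 2 was the lowest of the 6 libraries, replicate 3 lay inside the empty vector range, and replicate 1 was level with its lowest library.

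IREB2 (ENSG00000136381.13, chromosome 15, 78437431 to 78501456, plus strand) encodes iron regulatory protein 2, which is removed by protein degradation when iron is plentiful. It had 2999, 3343 and 3484 normalised reads in the SLC2A3 libraries, against 3316, 3431 and 3317 in the empty vector libraries. The SLC2A3 libraries spanned the whole empty vector range. Its log2 fold change was -0.037 (95% interval -0.15 to 0.075, limma adjusted p = 0.869), and 0.025 without SLC2A3 overexpression replicate 1. The mRNA level does not measure either protein's binding to RNA.

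**Figure D2:**
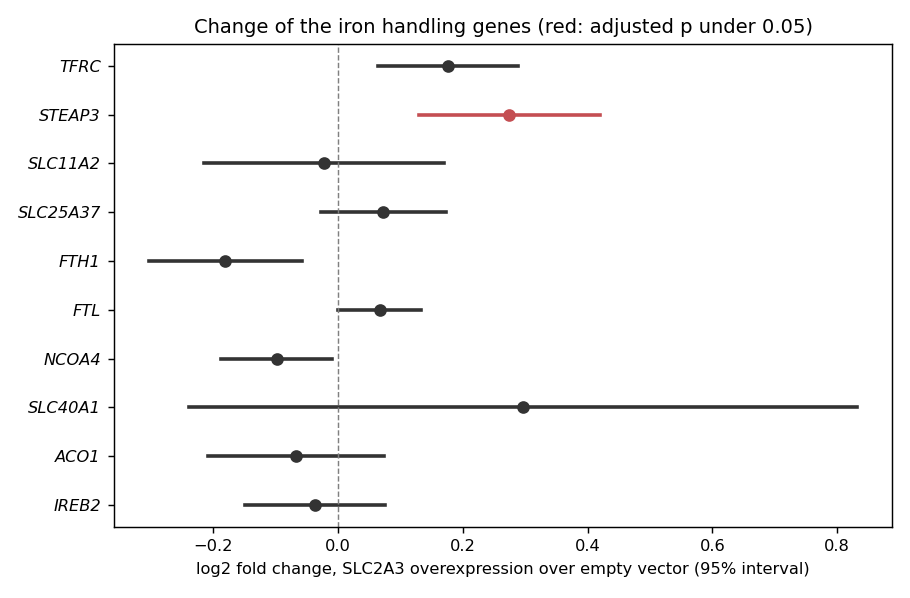
Log2 fold change (x axis), SLC2A3 overexpression over empty vector, with its 95% interval from limma for each iron handling gene (n = 3 libraries per group). STEAP3, in red, is the gene with an adjusted p under 0.05; intervals of TFRC, FTH1 and NCOA4 leave out 0 but did not pass over all genes, and that of SLC40A1 runs from -0.24 to 0.83.

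Across the 10 genes, 5 log2 fold changes were above 0 and 5 below, with a median of 0.022, beside 0.0014 over all tested genes. The SLC2A3 libraries lay above all empty vector libraries for 2 genes, where 8.04% of all tested genes and 11.6% of those with a mean of at least 500 did so, and below them for 0 genes (8.27% of all tested). At an unadjusted p under 0.05 there were 4 of the 10, TFRC, STEAP3, FTH1 and NCOA4, beside 11.8% of all tested genes and 23.4% of those with a mean of at least 500. Within the transferrin cycle, TFRC and STEAP3 were above in all SLC2A3 libraries while SLC11A2 overlapped. Within ferritin, the light chain mRNA averaged higher and the heavy chain mRNA lower, so the FTL to FTH1 ratio per kb of exon was 45.9, 37.0 and 42.8 in the SLC2A3 libraries and 34.3, 38.6 and 32.8 in the empty vector libraries. SLC2A3 replicate 2 lay inside the empty vector range of this ratio. The ratio of TFRC to FTH1 was 0.142, 0.120 and 0.130 per kb in the SLC2A3 libraries and 0.1004, 0.107 and 0.0980 in the empty vector libraries. The groups did not overlap in it, but it was formed from a gene already seen to be higher and one that averaged lower. Both ratios were chosen after the values were seen and carry no test, so neither adds support to the values of the single genes. Their size, but not the order of the libraries in them, depends on the length used. FTH1 has 2030 bases of merged exon and 1229 in its longest principal transcript.

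Levels were compared between genes as normalised reads per kb of merged exon length. FTL led by a wide margin, at 98484 ± 1717 in the SLC2A3 group and 94080 ± 3340 in the empty vector group (SD, n = 3 each). NCOA4 followed at 4199 ± 278 and 4491 ± 163, and FTH1 at 2371 ± 281 and 2677 ± 132. The middle held SLC25A37 at 541 ± 26.1 and 514 ± 13.7, TFRC at 308 ± 14.1 and 272 ± 0.938, IREB2 at 303 ± 23.1 and 310 ± 6.15, and STEAP3 at 235 ± 13.4 and 194 ± 0.798. The lower end was ACO1 at 140 ± 8.69 and 147 ± 2.08, SLC11A2 at 77.8 (73.8 to 83.4 over libraries) and 79.7 (68.7 to 95.7), and ferroportin mRNA at 13.5 ± 1.91 and 10.9 ± 1.31, in each case with the SLC2A3 group given before the empty vector group.

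Within each group, neighbours in this order did not overlap between libraries, except for IREB2 and TFRC in the SLC2A3 group. In the empty vector group IREB2 was above TFRC in all 3 libraries, at 307 to 318 against 272 to 273. The place of ACO1 and SLC11A2 depends on the length used. Per kb of the longest principal transcript, SLC11A2 was above ACO1, at 194 against 148 in the empty vector group. The levels of FTL and FTH1 are uncertain by the reads they share with pseudogenes.

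**Figure D3:**
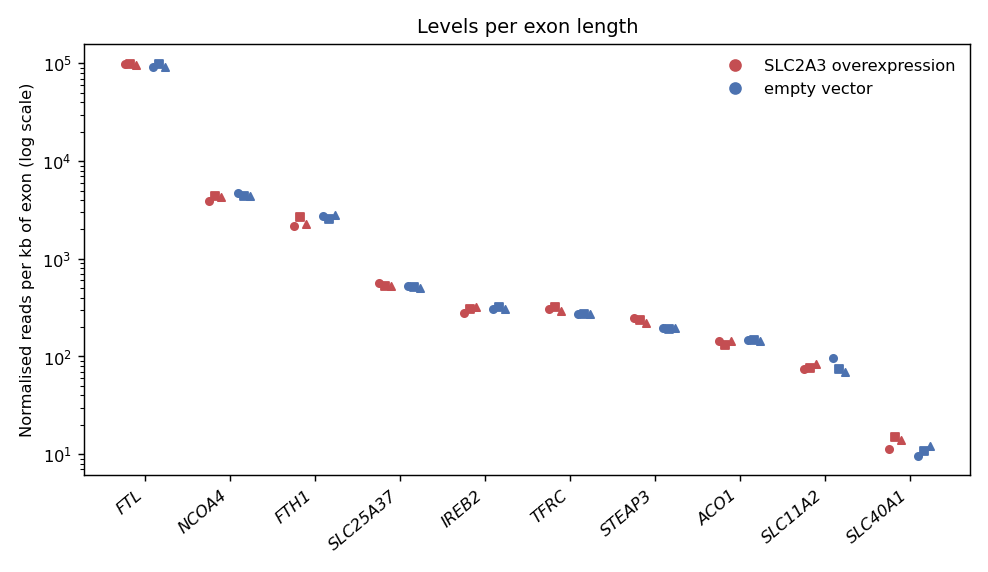
Normalised reads per kb of merged exon length (y axis, log scale) of the 10 iron handling genes, ordered by the empty vector mean, with 3 libraries of SLC2A3 overexpression (red, left) and 3 of empty vector (blue, right) per gene. FTL stands far above all others and SLC40A1 far below, and the groups lie close together within each gene.

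The wider iron genes were described by 7 lists. Of 29 tested genes of iron and heme transport, reduction and storage, 1 rose and 1 fell (list median log2 fold change 0.041, beside 0.0014 over all tested genes, of which 1.49% passed). MELTF, a transferrin relative that binds iron at the cell surface, had 598, 529 and 484 normalised reads in the SLC2A3 libraries, against 402, 402 and 410 in the empty vector libraries. It rose 1.33-fold (log2 fold change 0.40, SE 0.096, limma adjusted p = 0.0237), and its groups did not overlap. MELTF was not called without SLC2A3 overexpression replicate 1 or 2 or without empty vector replicate 1 or 3. It was also not called without both replicate 2 libraries or with a pseudocount of 0.1. Its adjusted p was up to 0.130 over the alternatives.

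LRP1, an endocytic receptor that takes up heme bound to hemopexin among many other ligands, had 3855, 3166 and 3716 normalised reads in the SLC2A3 libraries, against 4551, 4266 and 4630 in the empty vector libraries. It fell by 0.33 on the log2 scale (SE 0.059, limma adjusted p = 0.00187) and was called under all 16 alternatives. The most abundant of the list, PCBP2, an iron chaperone and RNA-binding protein, and the endosomal sorting protein SNX3 had log2 fold changes of -0.048 and -0.017. FTMT, which encodes mitochondrial ferritin, and the ferritin receptor gene SCARA5 had 0 reads in all 6 libraries. A count of 0 does not exclude an expected count of up to 3 reads in a library.

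Of 21 tested genes of iron sensing and the hepcidin axis, 0 rose and 2 fell (list median -0.012), beside 0.692% and 0.800% of all tested genes. An unadjusted p under 0.05 was found for 7 of them, beside 11.8% of all tested genes and 23.4% of those with a mean of at least 500 normalised reads. HERC2, a large ubiquitin ligase that acts on the iron sensor FBXL5, had 7433, 6489 and 7464 normalised reads in the SLC2A3 libraries, against 8403, 8288 and 8896 in the empty vector libraries. It fell by 0.26 (log2, SE 0.049, limma adjusted p = 0.00331) and was called under all 16 alternatives. FBXL5 itself, which marks iron regulatory protein 2 for degradation, had a log2 fold change of -0.047. EPAS1, the hypoxia factor HIF-2α, whose mRNA is known to carry an iron responsive element that the search above did not match, had 807, 884 and 908 normalised reads in the SLC2A3 libraries, against 1067, 1018 and 1061 in the empty vector libraries. It fell by 0.28 (log2, SE 0.072, limma adjusted p = 0.0453), and the groups did not overlap. The EPAS1 call was lost under 9 of the 16 alternatives, among them each fit without 1 of the 6 libraries (limma adjusted p of up to 0.179). With all 6 libraries it was lost with a pseudocount of 0.1 (limma adjusted p = 0.0739), a replicate block (limma, 0.0695) and DESeq2 without independent filtering (0.0536). CIAO1, which delivers iron-sulfur clusters in the cytosol, had a log2 fold change of -0.012.

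None of the 17 tested heme synthesis genes passed by limma (list median 0.041). At an unadjusted p under 0.05 there were 4, beside 11.8% of all tested genes and 23.4% of those with a mean of at least 500 normalised reads. DESeq2 at its default filtering passed 2 (7.98% of all genes it tested), and edgeR passed 0 (3.29%). The outer mitochondrial membrane protein TSPO and the carrier SLC25A39 were the most abundant, with log2 fold changes of 0.11 and 0.041. None of 7 genes of heme breakdown and response passed by limma, edgeR or DESeq2 (median 0.032), and 1 had an unadjusted p under 0.05 (11.8% of all tested genes). The heme oxygenase HMOX2 and the reductase POR, the most abundant of these, had log2 fold changes of 0.11 and 0.038. None of 26 iron-sulfur cluster genes passed by limma, edgeR or DESeq2 (median 0.0064). Of these, 6 had an unadjusted p under 0.05, beside the same shares of 11.8% and 23.4%. The most abundant, the chaperone HSPA9 and the targeting factor MMS19, had log2 fold changes of 0.11 and 0.0024.

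Of 27 tested ferroptosis and ferritinophagy genes, 1 rose and 1 fell (median 0.022), beside 0.692% and 0.800% of all tested genes. SLC7A11, the cystine importer that feeds glutathione synthesis, had 2027, 2216 and 2325 normalised reads in the SLC2A3 libraries, against 1876, 1719 and 1763 in the empty vector libraries. It rose 1.23-fold (limma adjusted p = 0.00854) and lost its call without SLC2A3 overexpression replicate 3 (adjusted p = 0.126). GPX4, which removes lipid peroxides, was the most abundant and had a log2 fold change of 0.0017.

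Of 12 autophagy receptors and genes of the lysosomal compartment where ferritin is opened, 0 passed by limma, edgeR or DESeq2. An unadjusted p under 0.05 was found for 2, beside 11.8% of all tested genes and 23.4% of those with a mean of at least 500 normalised reads. Of the 12, 1 had a log2 fold change above 0 and 11 below 0 (median -0.062), while 50.3% of all tested genes were above 0. For 4 of the 12 the SLC2A3 libraries lay below all empty vector libraries (8.27% of all tested genes), and for 0 above (8.04%). The most abundant were the proton pump subunit ATP6V1B2, with 11723, 12193 and 11512 normalised reads in the SLC2A3 libraries against 13277, 12303 and 12445 in the empty vector libraries, and the lysosomal membrane protein LAMP1, with log2 fold changes of -0.10 and -0.012.

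**Figure D4:**
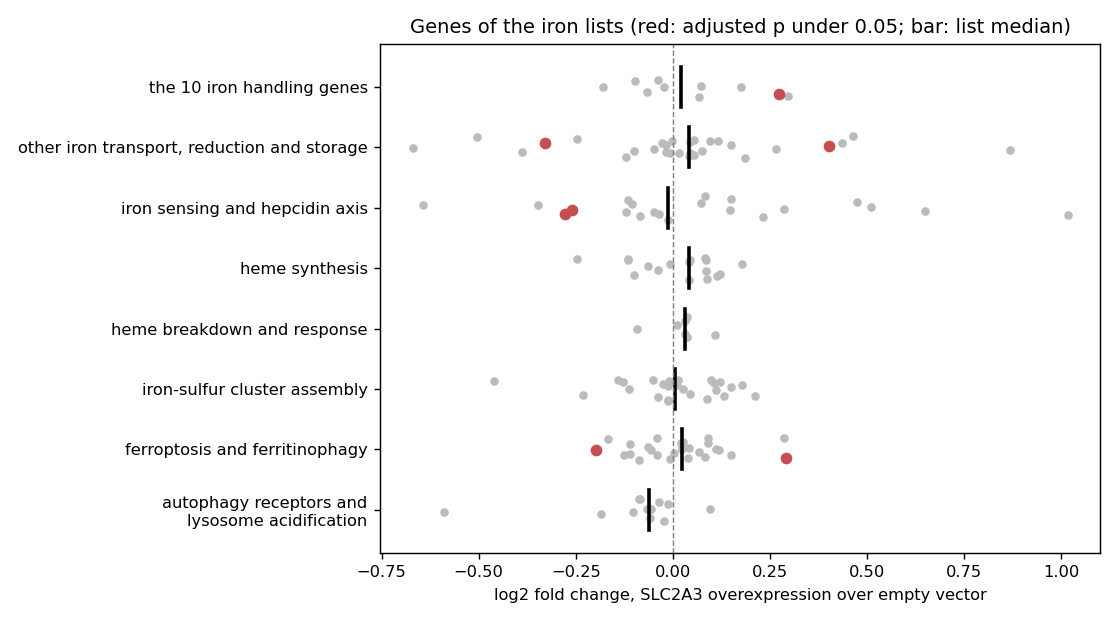
Log2 fold change (x axis), SLC2A3 overexpression over empty vector, of each tested gene in the 10 iron handling genes and 7 wider iron lists. Red points have an adjusted p under 0.05 and black bars are list medians, which lie between -0.062 and 0.041.

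**Figure D5:**
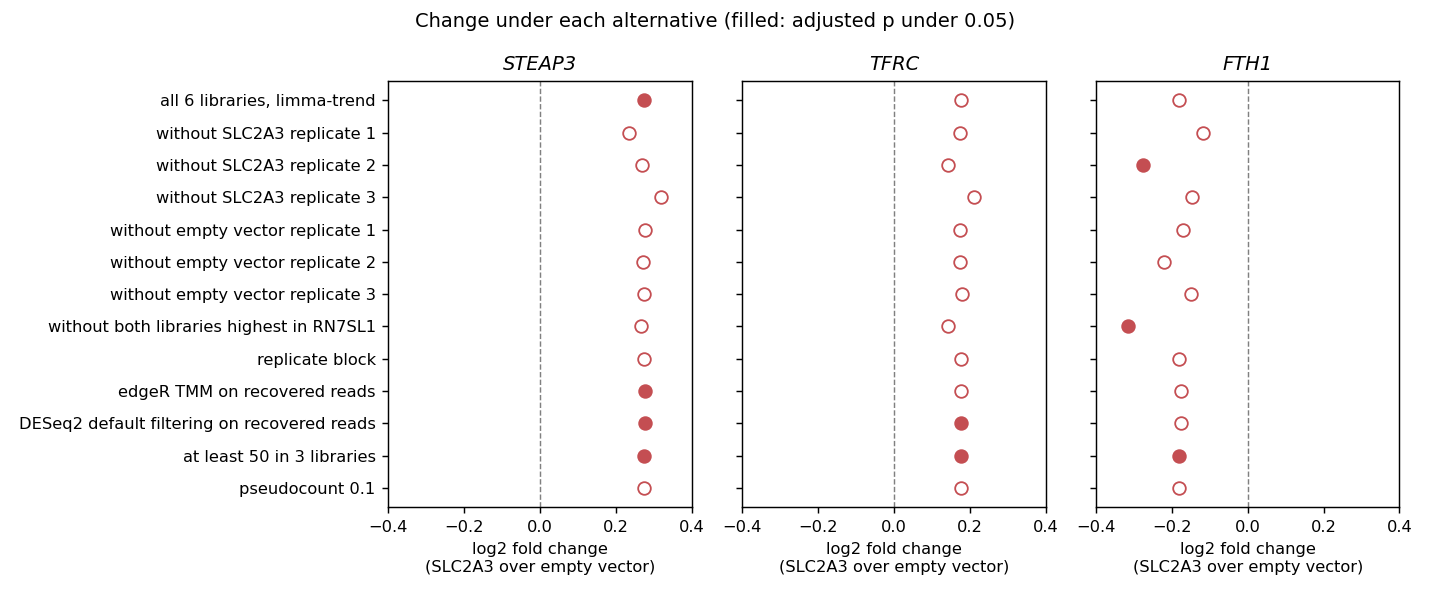
Log2 fold change (x axis) of STEAP3, TFRC and FTH1 with all 6 libraries and under 12 alternatives; filled points have an adjusted p under 0.05. STEAP3 and TFRC stay above 0 and FTH1 below 0 in each, while each of the 3 is called in some and not in others.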

How the data were processed

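Gene-level RNA-seq of 6 OCI-AML3 libraries was analysed, 3 with SLC2A3 overexpression and 3 with an empty vector, grouped by title. The authors deposited a normalised signal per gene, which from its values is a read count scaled by a single size factor for each library. In every library 100% of values came out as whole reads (tolerance 0.001 reads) once divided by the step between its low values, with size factors of 0.936 to 1.08. BWA, TopHat2 and hg38 are listed in the submitters' processing notes, and the labels' protocols name Trizol and a NEBNext Ultra II Directional kit; counter, annotation and strand setting are not given in the sources used here.

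log2(value + 1) was fitted with limma 3.58.1 (trend) in R 4.3.3, with no covariate beside the group. The 28015 genes tested had normalised values of 1 or more in 3 or more libraries, and Benjamini-Hochberg adjustment ran over all of them (threshold 0.05). Fold changes on this scale understate the change of low genes, and a fold given as such is a ratio of group means. edgeR 4.0.16 (quasi-likelihood) and DESeq2 1.42.0 were run on recovered reads as alternatives. The functions were tested on simulated counts. Members, lists and tests were chosen with earlier results of these data known. Named genes are the 10 members, SLC2A3, the top FTH1 and FTL pseudogenes, markers as ranges, and in each list those past the threshold (up to 4) and the 2 most abundant. The values of 1 gene of the ferroptosis list that this rule names are not reported here. RN7SL1, FBXL5, SLC25A28, FTMT, SCARA5, BEST1, STEAP3-AS1, ALAS2, TF and the base-pair minimum of 4 in the hairpin search were chosen after their values were seen. Symbols came from the gene name table, and coordinates, lengths and transcripts from GENCODE 29 (GRCh38), which may differ from the authors' annotation. No replicate pair agreed within sampling noise (chi-square per gene of 3.50 to 6.78 over genes with at least 10 reads), so all libraries were kept.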

Additional observations from a re-analysis of the deposited data

How the results depend on the processing

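16 alternatives were run, chosen with earlier results known. Over them, 141 of 159 member values kept their direction and side of the threshold, and SLC2A3 did in all. SLC11A2 and IREB2, near 0, turned: SLC11A2 to 0.014 without SLC2A3 overexpression replicate 1 and 0.12 without empty vector replicate 1 (range -0.12 to 0.12 with 1 library left out), IREB2 to 0.025 without SLC2A3 overexpression replicate 1 (range -0.083 to 0.025). Of the 10 genes, 1 was higher and 0 lower; this became 2 higher with DESeq2's default filtering, 2 higher and 1 lower when at least 50 normalised reads in 3 libraries were required, 0 higher with a pseudocount of 0.1, and 0 higher and 2 lower without both libraries highest in RN7SL1. Leaving out 1 library gave 0 higher each time and 0 to 1 lower, with fewer samples. No pairing by replicate number was seen (correlations of -0.09, 0.01 and -0.00 over 12584 genes, 0 of 6 samples closest to their own number). With 3 libraries a group, this cannot show that no batch was shared. A replicate block gave 0 of the 10 genes higher and 1 gene of the sensing list, with 167 genes higher and 196 lower in all. STEAP3 then had a limma adjusted p of 0.0683. Over all genes, 194 were higher and 224 lower; DESeq2's default filtering gave 343 and 441, the minimum of 50 gave 322 and 417, upper-quartile scaling in edgeR 303 higher and 265 lower, and a pseudocount of 0.1 gave 140 and 144. Leaving out 1 library gave 100 to 222 higher and 88 to 244 lower. The transport list went to 1 called gene with a pseudocount of 0.1 and without both libraries highest in RN7SL1, and was at 1 to 2 with 1 library left out. The sensing list went to 1 with DESeq2 without independent filtering or a pseudocount of 0.1 and was at 1 with 1 library left out. Without both libraries highest in RN7SL1 the sensing list was at 3. Heme synthesis went to 2 with DESeq2's default filtering and with the minimum of 50. The ferroptosis list went to 1 with a pseudocount of 0.1 and without both libraries highest in RN7SL1, and was at 0 to 2 with 1 library left out; the iron-sulfur list was at 0 to 1. The causes were not tested. Adding pseudogene reads left FTH1 at -0.18 and FTL at 0.066. Low reads limit SLC40A1, and changes of the size seen in SLC25A37, IREB2 and ACO1 are within the error of 3 libraries a group.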
